A study of Homo sapiens with 12 samples.

Results

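The mitochondrial chaperones and proteases described here are the 9 genes HSPD1, HSPE1, HSPA9, TRAP1, LONP1, CLPP, CLPX, YME1L1 and AFG3L2, taken by gene symbol from the 60612 genes of the deposited expression table. They were measured by poly(A) RNA sequencing in LX2, a human line of hepatic stellate cells (the collagen-producing cells of liver scarring) that is labelled wild type. Serum was withdrawn for 16 h in all cells, starting 24 h after seeding. The 12 libraries form 3 groups of 4: an untreated control, TGFb at 5 ng/ml for 16 h, and a 3 h pretreatment with 10 µM of a compound named STINGX followed by TGFb at that dose (STINGX+TGFb). STINGX without TGFb was not given to any group analysed here, the labels do not say whether the compound stayed on or which vehicle was used, and all libraries come from 1 cell line.

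Most mitochondrial proteins are made in the cytosol, threaded unfolded through the inner membrane and folded inside the organelle. HSPA9 (mortalin), the matrix HSP70, pulls them in, and HSPD1 (HSP60) with its lid HSPE1 (HSP10) encloses them while they fold. TRAP1 is the mitochondrial HSP90. Proteins that fail to fold are degraded in the matrix by LONP1 and by CLPP, a peptidase fed by the unfoldase CLPX, and at the inner membrane by YME1L1 on the outer face and AFG3L2 on the matrix face. When misfolded protein builds up in mitochondria, cells are known to raise the transcription of several of these genes, with ATF5, ATF4, DDIT3, CEBPB and HSF1 among the factors described.

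RefSeq promoter windows (GRCh38.p14, 250 bases before to 50 after the start) were found for 7 of the 9 genes. CLPP and YME1L1 had no entry in the table used. Each window was searched on both strands for a heat shock element (3 or more alternating units NGAAN and NTTCN), the endoplasmic reticulum (ER) stress element (CCAAT, 9 bases, CCACG), its second form (ATTGG, 1 base, CCACG) and the C/EBP-ATF element (TGATG, 1 base, AA). An element of 4 units also counts among those of 3 or more. The match in HSPD1 is shown because HSPD1 was among the members that rose, and HSPA5, the ER counterpart of HSPA9, is shown for comparison. Capitals mark the matched bases, and both runs are written 5′ to 3′ on the minus strand.
HSPD1, chr2:197500059-197500088: atTTTCTGGAAAGTTCTGGAACcgagcgag
HSPA5, chr9:125241344-125241463: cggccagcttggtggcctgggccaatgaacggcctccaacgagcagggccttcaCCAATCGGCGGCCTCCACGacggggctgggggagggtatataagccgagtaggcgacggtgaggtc
The HSPD1 run holds 4 units in a row. It was found in the window of the second of the gene's RefSeq starts, and by the GENCODE 29 models it lies 12 to 41 bases before the start of the transcript HSPD1-202, between exons of HSPD1-201 and in an exon of HSPE1-201 on the other strand. A heat shock element of 3 or more units was found in 0.478% of the 35116 RefSeq windows of this length, and one of 4 or more units in 0.0342%. The HSPA5 run covers the 120 bases before the start and holds an ER stress element at -66 to -48, found in 0.0769% of windows. None of the searched motifs matched in the windows of HSPE1, HSPA9, TRAP1, LONP1, CLPX and AFG3L2, nor in the other HSPD1 window. The HSPE1 window did not cover the HSPD1 run, although that run lies upstream of the HSPE1 start in the deposited table. The lack of a match for HSPE1 therefore concerns its window only, and the run cannot be assigned to HSPD1 alone. The second ER stress form was found in 0.0541% of all windows and the C/EBP-ATF element in 3.62%. These are matches of letters only.

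Library totals ran from 54035320 to 70787741 estimated counts, with 64151449 to 66738764 in control, 54035320 to 63193549 with TGFb and 58174812 to 70787741 with STINGX+TGFb. Of 12 stellate cell markers 10 were tested, and DES and LRAT were at 0 in every library. The summed stellate markers were 7255 to 7300.0 CPM (counts scaled to the library's size) in control, 12803 to 13130 with TGFb and 5963 to 6428 with STINGX+TGFb. The hepatocyte markers summed to 3.77 to 10.7 CPM in all libraries, with ALB, APOA2, TTR and FGB at 0, and the endothelial markers to 10.9 to 15.04 CPM. The macrophage and leukocyte markers summed to 73.0 to 80.9 CPM in control, 30.2 to 35.6 with TGFb and 74.7 to 90.3 with STINGX+TGFb, mostly CD68, with CD3E at 0, and the cholangiocyte and epithelial markers to 44.7 to 48.8, 56.7 to 65.1 and 29.4 to 30.7 CPM, with CFTR at 0. Their part in the results below was not tested. The labels do not say whether replicates are separate cultures, so p-values measure the spread between these libraries, which may be technical. Fewer cells and less RNA per cell cannot be told apart in such bulk samples.

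All 9 members were expressed in every library, with 1805 to 36874 estimated counts per gene, and all 9 passed the filter on low counts. Compared per length, as FPKM (fragment counts scaled by gene length and library size), the control levels were ordered HSPD1, HSPE1, HSPA9, LONP1, AFG3L2, YME1L1, TRAP1, CLPP and CLPX. HSPD1 was the highest at 81.7 ± 1.38 FPKM (SD, n = 4). HSPE1, at 46.8 ± 13.1, and HSPA9, at 41.8 ± 1.39, did not differ beyond their spread, and neither did AFG3L2 at 17.5 ± 0.276 and YME1L1 at 17.5 ± 0.778, or TRAP1 at 10.8 ± 0.950 and CLPP at 9.23 ± 1.77. LONP1 lay between these pairs at 25.3 ± 1.98 FPKM, and CLPX was lowest at 5.51 ± 0.284. With STINGX+TGFb, HSPA9 at 54.9 ± 2.53 FPKM stood above HSPE1 at 45.8 ± 13.2, still within the spread of HSPE1, and HSPD1 reached 104.7 ± 2.41. In each of the 3 groups the folding chamber HSPD1 was the most abundant member per length and the unfoldase CLPX the least.

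**Figure D1:**
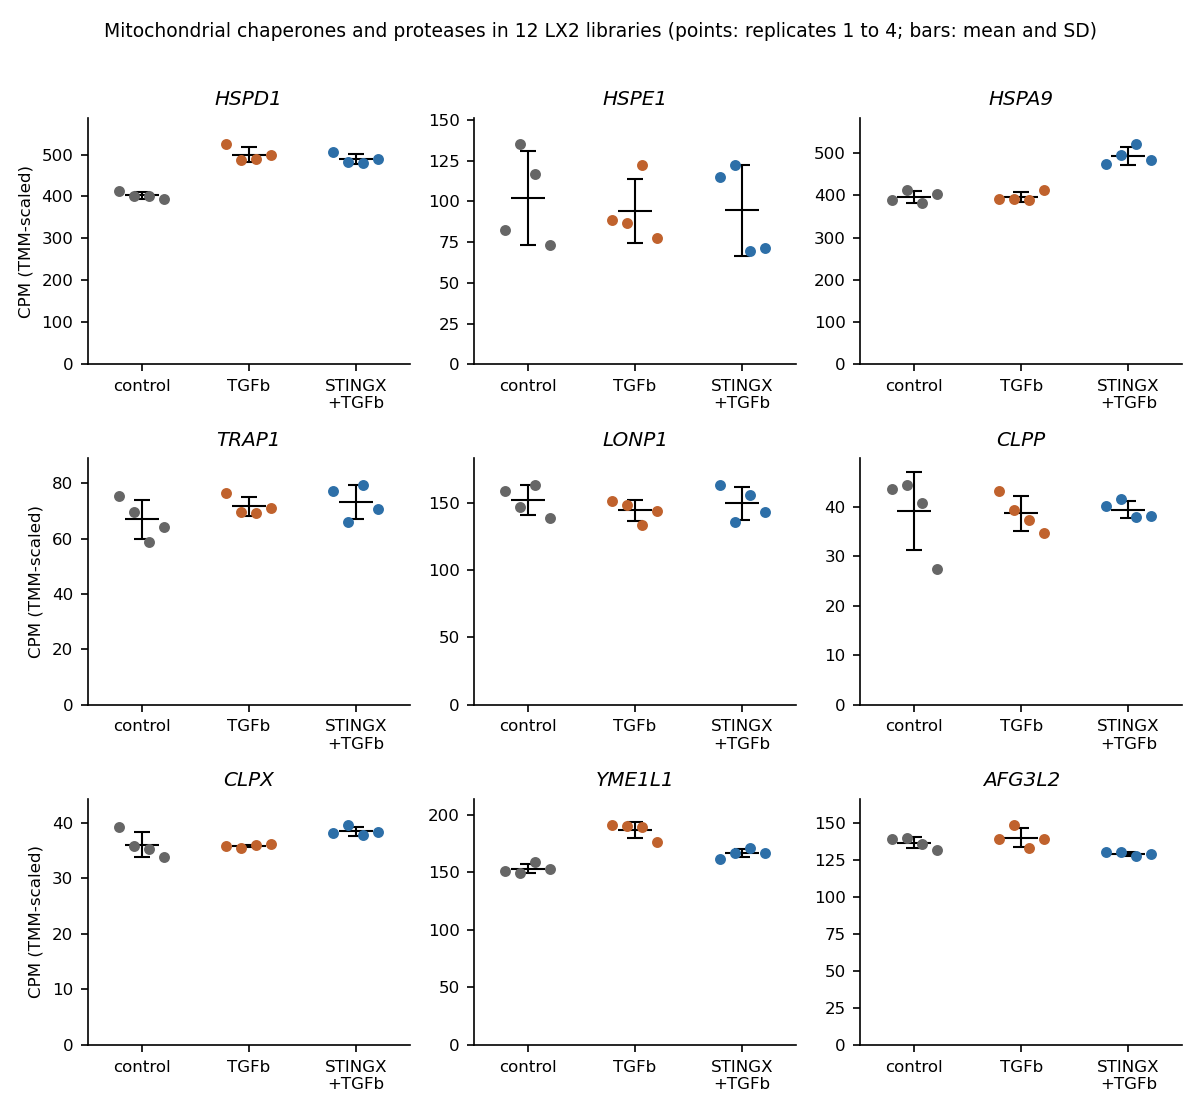
Level of each member in TMM-scaled CPM (vertical axes, from 0) in the 12 libraries, by group. Points are replicates 1 to 4 from left to right, bars the mean and SD; HSPD1 and YME1L1 stand higher in every TGFb library than in any control, HSPA9 stands higher in the 4 STINGX+TGFb libraries, and HSPE1 is spread widely inside each group.

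Members passed the test at shares near those of all genes, and each rise that passed was at most 1.24-fold. TGFb raised the folding chamber HSPD1 and the inner membrane protease YME1L1, and STINGX before TGFb raised the matrix HSP70 HSPA9 and lowered YME1L1. The other subunits and proteases did not pass the test. In TGFb against control 2 of 9 members rose and none fell at an edgeR adjusted p under 0.05, where 26% of the 21328 genes tested passed, 13.2% higher and 12.8% lower. In STINGX+TGFb against TGFb 1 of 9 rose and 1 fell, where 27.5% of all genes passed, 13.7% higher and 13.8% lower. In STINGX+TGFb against control 3 of 9 rose (HSPD1, HSPA9 and YME1L1) and none fell, where 34.2% passed, 17.2% higher and 17% lower. The groups did not overlap for 2, 4 and 4 of the 9 members in these comparisons, against 27.1%, 31.6% and 34.5% of all genes. The shares of members called, 22.2%, 22.2% and 33.3%, were near those of all genes. Their median log2 fold changes were -0.0013, 0.028 and 0.095, against -0.0040, 0.0063 and 0.0042 over all genes tested. The last 2 comparisons share the STINGX+TGFb libraries, the first and the last the control libraries, and the first 2 the TGFb libraries, so they are not independent of each other.

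The direction of small changes after STINGX rests on how libraries are scaled. With trimmed-mean (TMM) scaling, used throughout, the median gene did not move. With library size alone the median of all genes in STINGX+TGFb against TGFb shifted by 0.15 on the log2 scale, the genes called split into 4997 higher and 1890 lower in place of 2931 and 2933, and the members into 4 higher (HSPD1, HSPA9, LONP1 and CLPX) and none lower. The split of called genes became 2224 higher and 3523 lower (in place of 2813 and 2730) in TGFb against control, and 4683 and 2876 (in place of 3670 and 3626) in STINGX+TGFb against control. Relative to the shifted median of STINGX+TGFb against TGFb, HSPA9 was still higher by 0.31, HSPD1 differed by -0.04, YME1L1 by -0.17 and AFG3L2 by -0.12.

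**Figure D2:**
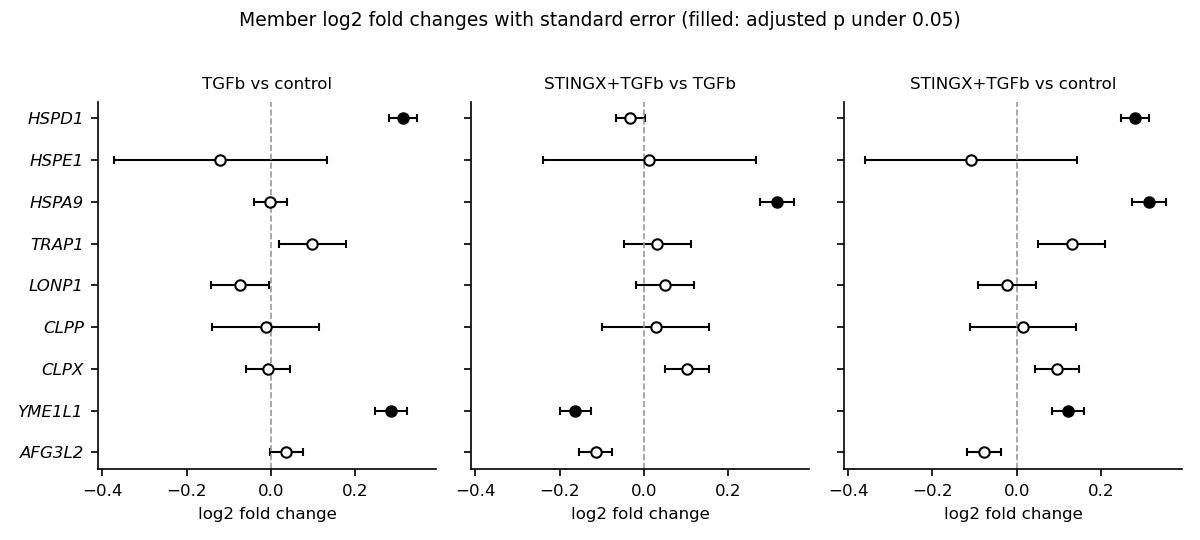
Log2 fold change (horizontal axes) of each member in the 3 comparisons, with the standard error as bars; filled points passed an adjusted p of 0.05. HSPD1 and YME1L1 are filled on the left, HSPA9 and YME1L1 in the middle, and HSPD1, HSPA9 and YME1L1 on the right, while HSPE1 has the widest bars.

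HSPD1, the folding chamber, lies at chr2:197486584-197500274 on the minus strand in the deposited table (GRCh38) and rose with TGFb. It stood at 414, 402, 400.0 and 393 CPM in control replicates 1 to 4, at 525, 486, 490.2 and 498 with TGFb, and at 506, 481, 479 and 488 with STINGX+TGFb. Every library with TGFb was above every control library, whether or not STINGX was given. The log2 fold change of TGFb against control was 0.31 ± 0.03 (SE; edgeR adjusted p = 1.88e-05), a 1.24-fold rise, and that of STINGX+TGFb against control was 0.28 ± 0.03 (edgeR adjusted p = 3.76e-05). STINGX+TGFb and TGFb did not differ beyond their spread, at -0.03 ± 0.03 (edgeR adjusted p = 0.540). This last value turned to a rise of 0.11 with library size alone (edgeR adjusted p = 0.0198).

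HSPE1, the lid of the chamber, lies head to head with HSPD1 on the plus strand (chr2:197500140-197503382), so that the gene models share 135 bases. It stood at 82.5, 135, 117 and 73.4 CPM in control, 88.6, 87.0, 122 and 77.5 with TGFb, and 115, 122, 69.7 and 71.6 with STINGX+TGFb. Control 2 and 3, TGFb 3 and STINGX+TGFb 1 and 2 stood at 114.9 CPM or more and the other 7 libraries at 88.6 or less, and the groups overlapped. Its coefficient of variation within groups was 28.4%, 20.96% and 29.4%, higher than in 93.4%, 91.5% and 95.7% of the 6714 genes with a mean of at least 30 CPM. For HSPD1 it was 2.18%, 3.46% and 2.44%. No comparison of HSPE1 passed, and the log2 fold changes of -0.12 ± 0.25, 0.01 ± 0.25 and -0.11 ± 0.25 leave room for changes as large as those of HSPD1. Pseudogenes named after HSPE1 (26 genes) held counts equal to 2.12% to 4.64% of its own and those named after HSPD1 (17 genes) 1.70% to 2.77%, so reads shared with near copies can touch both.

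The chamber and its lid work together as proteins, and a ratio of their RNA counts inside each library can be compared without scaling. Such a count ratio does not measure the proportion of the proteins. The count ratio of HSPD1 to HSPE1 was 2.97 to 5.36 in control, 4 to 6.43 with TGFb and 3.94 to 6.88 with STINGX+TGFb. The groups overlapped, and the mean log2 ratio differed by 0.41 between TGFb and control (two-sided exact permutation test, p = 0.171, adjusted over 6 ratio tests 0.686), by -0.02 between STINGX+TGFb and TGFb (exact p = 0.971, adjusted 1) and by 0.39 between STINGX+TGFb and control (exact p = 0.229, adjusted 0.686). With 4 libraries against 4 the smallest p possible is 0.0286 before adjustment, so that no single ratio could pass after it.

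HSPA9 (chr5:138553756-138575416, minus strand), the matrix HSP70 and motor of import, was the member that rose with STINGX. It stood at 388, 413, 381 and 404 CPM in control, at 391, 392, 389.6 and 413 with TGFb, and at 474, 495, 521 and 483 with STINGX+TGFb. Control and TGFb libraries covered the same range, and every STINGX+TGFb library was above all 8 of them. The log2 fold change was 0.32 ± 0.04 against TGFb (edgeR adjusted p = 6.46e-05) and 0.31 ± 0.04 against control (edgeR adjusted p = 5.35e-05), a 1.24-fold rise in each, and -0.00 ± 0.04 for TGFb against control (edgeR adjusted p = 0.985). Both rises passed in all 12 other settings and without each library in turn.

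Chaperones related to HSPA9 in other compartments moved by different amounts, some close to that of HSPA9. With STINGX against TGFb the cytosolic HSPA1A rose by 0.37 ± 0.05 and HSPA1B by 0.43 ± 0.04, beside 0.32 for HSPA9. HSPA5 (BiP), the ER HSP70, was at 1916 ± 68.1 CPM (SD, n = 4) in control, 2152 ± 46.0 with TGFb and 6120 ± 87.4 with STINGX+TGFb, a log2 fold change of 1.51 ± 0.03 against TGFb (edgeR adjusted p = 4.44e-12). HSPA8, the constitutive cytosolic HSP70, rose by 0.43 ± 0.09 with TGFb (edgeR adjusted p = 0.00263) and was at -0.21 ± 0.09 with STINGX against TGFb (edgeR adjusted p = 0.0941).

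TRAP1, the mitochondrial HSP90 (chr16:3651639-3717553, minus strand), did not pass in any comparison with TMM scaling, and was at 0.21 in STINGX+TGFb against control with library size alone (edgeR adjusted p = 0.0432). It ranged from 59.0 to 75.3 CPM in control, 69.4 to 76.7 with TGFb and 65.9 to 79.6 with STINGX+TGFb, with overlapping groups. TRAP1 shares 28505 bases with DNASE1 on the opposite strand, which held 2752 to 3633 counts. Whether counting used strand is not given in the sources used here. Of the HSP90 proteins elsewhere, HSP90B1 in the ER rose by 0.95 ± 0.03 with STINGX against TGFb (edgeR adjusted p = 5.23e-10), HSP90AA1 in the cytosol rose by 0.29 ± 0.06 (edgeR adjusted p = 0.0033), and HSP90AB1 rose by 0.47 ± 0.02 with TGFb (edgeR adjusted p = 1.66e-08) and fell by 0.14 with STINGX (edgeR adjusted p = 0.000803). The fall of HSP90AB1 did not pass with library size alone.

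The matrix proteases did not pass the test in any comparison with TMM scaling. LONP1 (chr19:5691834-5720572, minus strand), an ATP-driven protease of oxidised and misfolded proteins, ranged from 139 to 164 CPM in control, 134 to 152 with TGFb and 136 to 164 with STINGX+TGFb. CLPP (chr19:6361531-6370242, plus strand), the peptidase, ranged from 27.5 to 44.4, 34.7 to 43.2 and 37.9 to 41.6 CPM; control replicate 4 held the low value. For these proteases the groups overlapped in every comparison, and the log2 fold changes lay between -0.07 and 0.05.

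CLPX (chr15:65148219-65185342, minus strand), the unfoldase that feeds CLPP, stood at 35.8, 35.5, 35.9 and 36.1 CPM with TGFb and 38.1, 39.6, 37.8 and 38.3 with STINGX+TGFb. These groups did not overlap, but the log2 fold change of 0.10 ± 0.05 did not pass (edgeR adjusted p = 0.171), and the control libraries, at 33.8 to 39.1, overlapped with both groups. It did pass with library size alone, at 0.24 (edgeR adjusted p = 0.00172). The CLPX to CLPP count ratio was 0.804 to 1.23, 0.83 to 1.04 and 0.952 to 1.01 in the 3 groups, and its mean log2 differences of -0.01, 0.07 and 0.06 gave exact permutation p of 1, 0.371 and 0.743 (adjusted over the 6 ratio tests 1, 0.743 and 1).

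YME1L1 (chr10:27110111-27154420, minus strand), the protease on the outer face of the inner membrane, was raised by TGFb and lower again with STINGX. It stood at 151, 149, 159 and 153 CPM in control, at 191, 189.7, 189 and 176 with TGFb, and at 162, 166, 171 and 167 with STINGX+TGFb. The 3 groups did not overlap at all, with the STINGX+TGFb libraries between the other groups. The log2 fold change of TGFb against control was 0.28 ± 0.04 (edgeR adjusted p = 0.000102), that of STINGX+TGFb against TGFb was -0.16 ± 0.04 (edgeR adjusted p = 0.00622), and that of STINGX+TGFb against control was 0.12 ± 0.04 (edgeR adjusted p = 0.0243). The fall after STINGX was -0.02 with library size alone (edgeR adjusted p = 0.740). The rise over control lost its call with upper quartile scaling (0.07, edgeR adjusted p = 0.164), with no filter (edgeR adjusted p = 0.0571), and without control replicate 1 or 2 or STINGX+TGFb replicate 2, 3 or 4, at adjusted p of 0.0529 to 0.0723.

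AFG3L2 (chr18:12328944-12377227, minus strand), the protease on the matrix face, stood at 140, 149, 133 and 139 CPM with TGFb and at 130.4, 131, 128 and 129 with STINGX+TGFb. The STINGX+TGFb libraries lay below all TGFb libraries and, by a small margin, below the control range of 132 to 140.0. The log2 fold change against TGFb of -0.11 ± 0.04 fell just outside the threshold (edgeR adjusted p = 0.0501). It passed in 7 of 12 other settings and in 2 of 12 fits that left out a library, and was 0.03 with library size alone. In the deposited table AFG3L2 shares 15377 bases with TUBB6 on the opposite strand, which held 9916 to 41519 counts. The library kit marks strand, but whether counting used strand is not given in the sources used here.

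SPG7, the partner of AFG3L2 in the same ring, was at 83.0, 81.1 and 72.4 CPM in the 3 groups and did not pass (edgeR adjusted p = 0.194 for STINGX+TGFb against TGFb). PHB2, a prohibitin that surrounds that protease, was at 133, 137 and 121 CPM and did not pass either (edgeR adjusted p = 0.0633). Of the 6 genes listed as scaffolds of these proteases none passed with TGFb (none at an unadjusted p under 0.05 either), and 1 rose (AFG1L) and 1 fell (STOML2, 90.3 to 71.05 CPM, log2 fold change -0.35 ± 0.07, edgeR adjusted p = 0.0035) with STINGX against TGFb. AFG1L was at 0.50 ± 0.17 (edgeR adjusted p = 0.0495), and this passed in 7 of 12 other settings and in 2 of 12 fits without a library. The list median was -0.17, against 0.0063 for all genes, and PHB1 at -0.32 ± 0.11 did not pass (edgeR adjusted p = 0.0528). Of this list 0% were called with TGFb and 33.3% with STINGX against TGFb, where 26% and 27.5% of all genes passed.

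The counts of several members were assigned to different transcripts from library to library. For HSPD1 the deposited counts went almost wholly to HSPD1-201 in 7 libraries (88.5% to 93.3%) and to HSPD1-202 in the other 5 (95.9% to 97.5%). HSPD1-202 dominated in control 3, TGFb 1 and 4 and STINGX+TGFb 1 and 2, so each group held both forms. The GENCODE 29 starts of these transcripts are 227 bases apart, and they differ in length by 156 bases.

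HSPA9 counts went to the protein-coding HSPA9-201 at 95.1% to 97.9% in all 4 control libraries. In TGFb 1 and 2 and STINGX+TGFb 1 and 2 they went mostly to HSPA9-215, annotated as a target of nonsense-mediated decay, at 73.0%, 69.9%, 55.5% and 69.99%. The other treated libraries had at most 1.53% there. The gene total of the TGFb libraries was similar on either side of this divide, 391 and 392 against 389.6 and 413 CPM, and so was that of the STINGX+TGFb libraries, 474 and 495 against 521 and 483.

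YME1L1 counts went mostly to YME1L1-201 in 7 libraries, to YME1L1-209 in 4 and to YME1L1-203 in STINGX+TGFb 2, and LONP1 and TRAP1 also changed their main transcript between libraries of 1 group. Control 3, TGFb 1 and 2 and STINGX+TGFb 1, with LONP1-201 at 94.6% or more, held the highest LONP1 totals of their groups. HSPE1, CLPX and AFG3L2 kept 1 transcript at 83.2% or more in every library. Because such shares switched between replicates, no transcript was compared between groups.

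**Figure D3:**
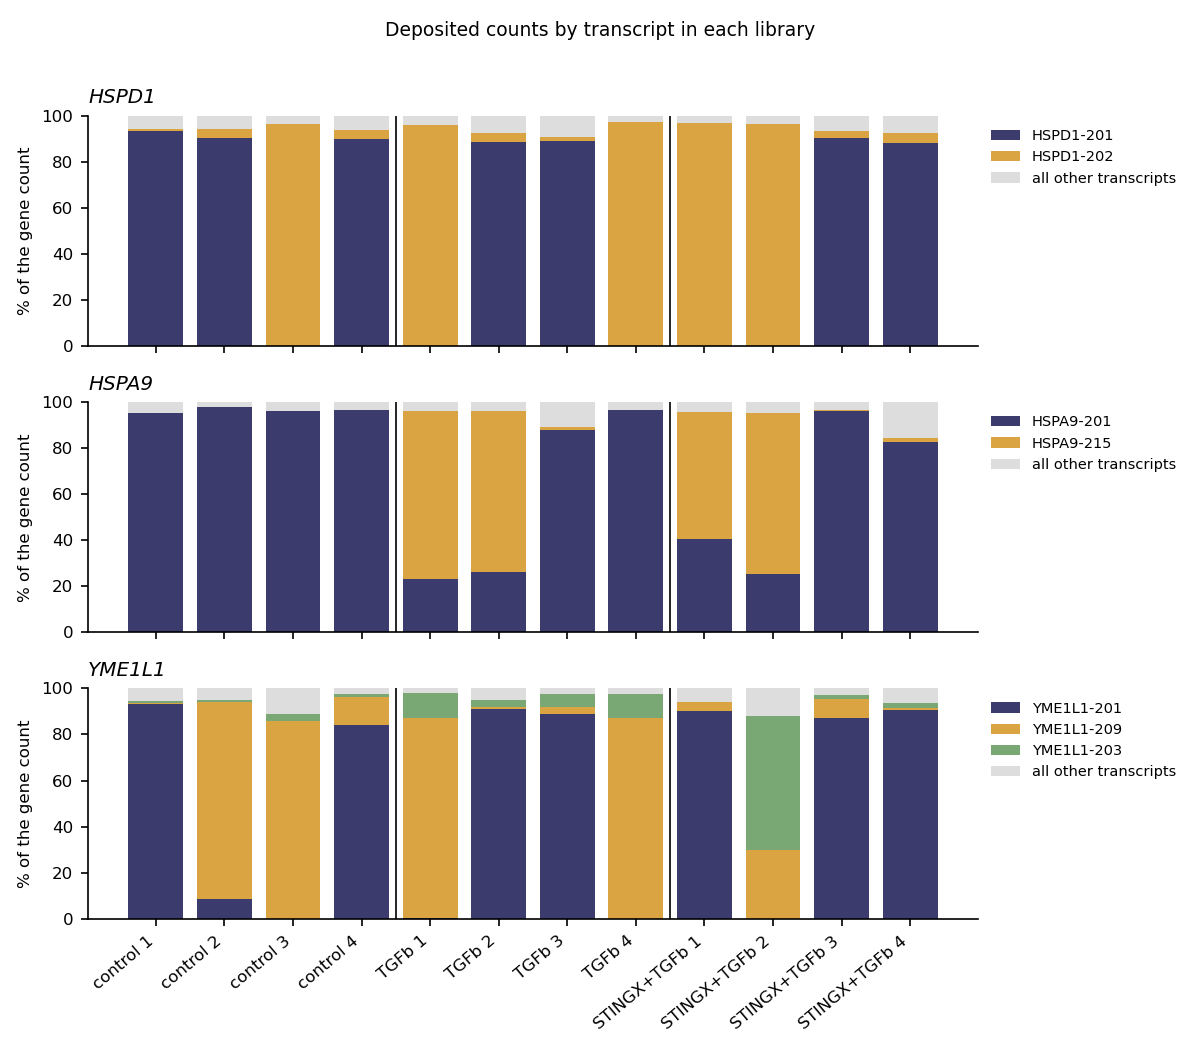
Share of each gene's deposited count (vertical axes, percent) assigned to its main transcripts in every library, for HSPD1, HSPA9 and YME1L1; black lines part control, TGFb and STINGX+TGFb. HSPD1 switches between HSPD1-201 and HSPD1-202 inside each group, while HSPA9-215 is near 0 in control and carries 55.5% to 73.0% in 4 of 8 treated libraries.

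Of the 9 genes listed as co-chaperones, a loose list that also holds CLPB and BCS1L, none passed with TGFb (none at an unadjusted p under 0.05 either). With STINGX against TGFb 1 fell, DNAJC15, an import motor J-protein, at -0.15 ± 0.05 (edgeR adjusted p = 0.0490). This fall passed in 7 of 12 other settings and in 1 of 12 fits without a library. With library size alone 2 genes of this list rose and none fell in that comparison. Of the 22 import genes 5 rose with TGFb: PAM16, part of the import motor that HSPA9 drives, by 0.57 ± 0.13 (edgeR adjusted p = 0.00496), the channel subunit TIMM17A by 0.22 ± 0.06 (edgeR adjusted p = 0.0139), the receptor TOMM20 by 0.20 ± 0.05 (edgeR adjusted p = 0.00806), and TIMM50 and TOMM70. With STINGX against TGFb 1 rose, CHCHD4, the oxidative import factor (0.33 ± 0.09, edgeR adjusted p = 0.0111), and 1 fell, the receptor TOMM22 (-0.30 ± 0.07, edgeR adjusted p = 0.00955). The import median was 0.10 with TGFb and -0.09 with STINGX against TGFb, and the latter was 0.06 with library size alone. With library size alone 2 import genes rose with TGFb, PAM16 and TOMM20, and 1 fell, while with STINGX against TGFb 2 rose and none fell. With TMM scaling 22.7% of the import genes were called with TGFb and 9.09% with STINGX against TGFb. For the co-chaperone list these shares were 0% and 11.1%. Of all genes 26% and 27.5% passed in either direction, so the import shares in either direction were near or below those of all genes. The 22.7% of import genes called with TGFb were all rises, where 13.2% of all genes passed higher.

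Of 15 other mitochondrial proteases and peptidases 1 fell with TGFb, the serine protease LACTB (-0.26 ± 0.07, edgeR adjusted p = 0.0162). With STINGX against TGFb 5 fell and 2 rose, and with library size alone 1 fell and 4 rose. PMPCA, the non-catalytic subunit of the processing peptidase that removes import signals, went from 70.3 to 55.4 CPM (-0.34 ± 0.05, edgeR adjusted p = 0.000286), and PITRM1, which degrades the removed signals, from 96.7 to 124 CPM (0.36 ± 0.05, edgeR adjusted p = 0.00022). Larger changes were those of IMMP2L at 0.78 ± 0.21, ATP23 at -0.66 ± 0.20 and PARL, the rhomboid protease, at -0.43 ± 0.12, with edgeR adjusted p of 0.0138, 0.0287 and 0.0165. ATP23 and PARL did not pass with library size alone. PMPCA and PITRM1, as well as PHB1, TIMM50 and TOMM70 above and ATF4 below, were chosen after their values were seen. Of 9 known substrates of the members 1 rose and 2 fell with TGFb, and 4 fell with STINGX against TGFb. With library size alone none rose and 4 fell with TGFb, and 1 rose and none fell with STINGX against TGFb. With TMM scaling 6.67% of these proteases and 33.3% of the substrates were called with TGFb, against 26% of all genes. With STINGX against TGFb the shares were 46.7% and 44.4%, against 27.5% of all genes. TIMM17A is in both the import and the substrate list. COX4I1, of the respiratory chain, went from 157 to 131 and 110 CPM over the 3 groups.

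Among the genes listed as mitochondrial stress signalling, of 9 tested 4 fell and none rose in TGFb against control. In STINGX+TGFb against TGFb 5 rose and none fell. FGF21 was not tested. The shares called were 44.4% and 55.6% in these comparisons, against 26% and 27.5% of all genes. ATF5, the factor tied to the mitochondrial unfolded protein response, was at 28.4, 20.7 and 26.5 CPM in the 3 groups, a fall of 0.46 (edgeR adjusted p = 0.00307) and a rise of 0.36 ± 0.09 (edgeR adjusted p = 0.0134). The shared stress factor DDIT3 (CHOP) rose by 1.53 ± 0.32 with STINGX against TGFb (edgeR adjusted p = 0.00446), its target TRIB3 by 1.87 ± 0.07 (edgeR adjusted p = 6.82e-10), CEBPB by 0.57 ± 0.08 (edgeR adjusted p = 0.000114) and ATF4 by 0.24 ± 0.08 (edgeR adjusted p = 0.0418). GDF15, a secreted stress signal, fell by 2.24 with TGFb, from 4.64 to 0.981 CPM (edgeR adjusted p = 2.03e-06). Of the members, HSPA9 rose and YME1L1 fell in STINGX+TGFb against TGFb, and the other 7 did not pass. Whether the changes of the listed stress genes reflect stress in mitochondria or elsewhere was not tested.

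Chaperones of the same families outside mitochondria were counted beside the members. Of 11 ER counterparts 10 rose and none fell with STINGX against TGFb, with a median log2 fold change of 0.95, led by HSPA5, by DNAJB9 at 1.39 ± 0.06 (edgeR adjusted p = 1.97e-09) and by HYOU1 at 1.26 ± 0.10 (edgeR adjusted p = 1.01e-06). HSPA9, the member that rose in this comparison, was at 0.32. With TGFb 4 of the 11 rose and none fell, while 2 rose and 1 fell with library size alone. With TMM scaling 90.9% were called with STINGX against TGFb and 36.4% with TGFb, against 27.5% and 26% of all genes.

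The cytosolic chaperonin (CCT), the counterpart of HSPD1, rose with TGFb in 5 of 8 subunits, among them CCT6A by 0.33 ± 0.05 (edgeR adjusted p = 0.000435) and CCT4 by 0.27 ± 0.07 (edgeR adjusted p = 0.00974), with a median of 0.21 beside 0.31 for HSPD1; 3 of 8 rose with library size alone. With STINGX against TGFb 6 of 8 fell and none rose, median -0.24, while HSPD1 was at -0.03; only 1 of the 6 falls passed with library size alone. Of 12 cytosolic heat shock proteins 6 rose and 1 fell with TGFb, and 5 rose and 3 fell with STINGX against TGFb. With library size alone these counts were 5 and 1, and 7 and 0. With TMM scaling 62.5% of the CCT subunits and 58.3% of these heat shock proteins were called with TGFb, against 26% of all genes. With STINGX against TGFb the shares were 75% and 66.7%, against 27.5% of all genes. HSPA1B, the heat-inducible HSP70, rose by 0.43 ± 0.04 (edgeR adjusted p = 3.76e-06) and HSPA1A by 0.37 ± 0.05 (edgeR adjusted p = 0.000236); these are near-identical copies whose reads cannot be fully told apart.

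**Figure D4:**
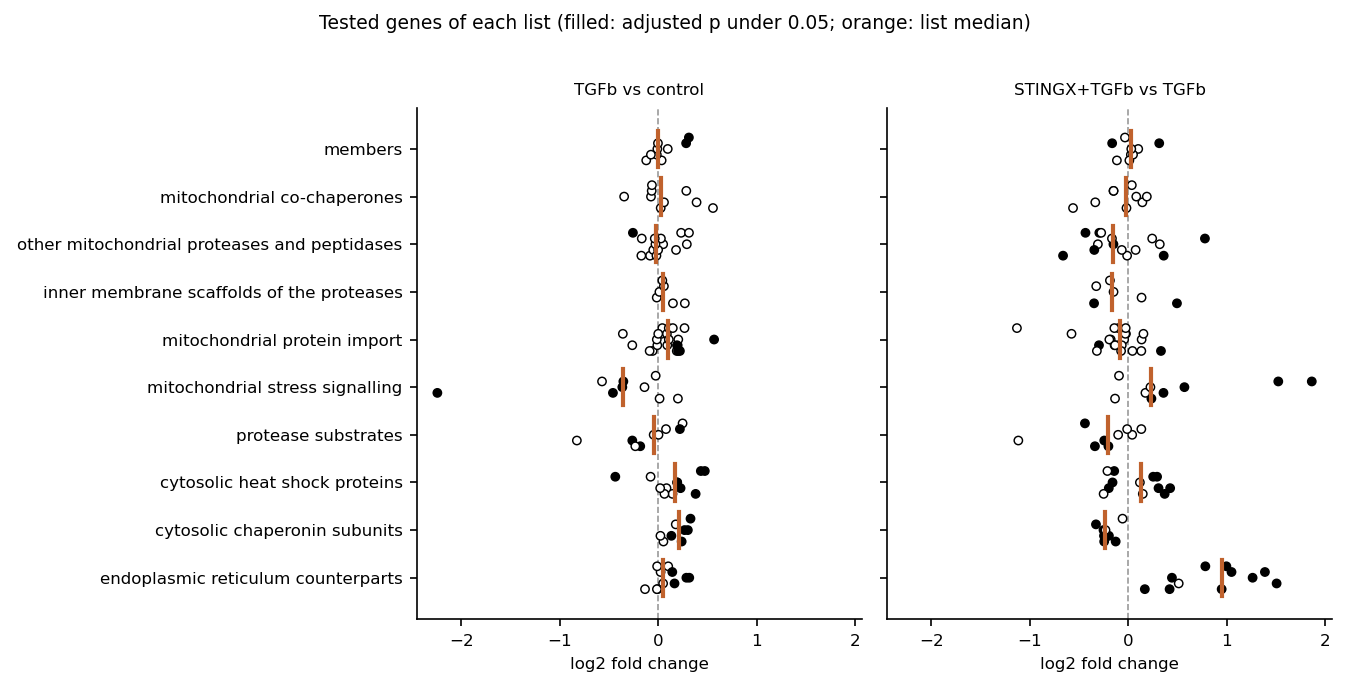
Log2 fold change (horizontal axes, same range) of every tested gene in the member list and the 9 other gene lists, for TGFb against control and STINGX+TGFb against TGFb; filled points passed an adjusted p of 0.05 and orange bars are list medians. The ER counterparts stand apart on the right with a median of 0.95, while the members and the genes listed as co-chaperones lie around 0.

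The genes whose level followed each member most closely over the 12 libraries were found by Pearson correlation of log2 CPM among 13646 genes; the libraries share groups, so the values describe the pattern only. HSPD1 was followed by MYO10 (r = 0.982), SCG5 and WDR43, HSPA9 by MEDAG (r = 0.973), SLC13A3 and SLC10A7, and YME1L1 by TCIM (r = 0.968), CALD1 and UNC5B. The nearest genes were DSTN for AFG3L2 (r = 0.927), PSME3IP1 for CLPP (r = 0.927), CCDC96 for CLPX (r = 0.926), COPS2 for TRAP1 (r = 0.889), SUMF2 for HSPE1 (r = 0.834) and TMEM106C for LONP1 (r = 0.794). No member was among the 3 nearest genes of another member.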

How the data were processed

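Gene and transcript counts of 12 libraries were used as deposited; per the submitters' processing notes reads were processed with cutadapt, HISAT2, StringTie and edgeR against GRCh38, with no versions or annotation release given. The values are whole-number estimated counts, deposited by the authors per gene and per transcript, and the transcripts of each gene sum to its gene count in all 60612 genes. FPKM values were deposited beside them, listed as 0.0001 where the count is 0, and were used for levels per length and in 2 alternatives. Genes were kept with filterByExpr (minimum count 10), scaled by TMM and tested with edgeR 4.0.16 (quasi-likelihood, group only, all 12 libraries, R 4.3.3), with Benjamini-Hochberg adjustment over the 21328 genes tested and a threshold of 0.05. CPM are counts divided by the TMM-scaled library size. Standard errors come from the fold change and its F statistic. Estimated counts bring in an error of read assignment that counting error does not cover. Alternatives were DESeq2 1.42.0, limma 3.58.1 (voom, and log2 of FPKM plus 1 or 0.1), other scalings and filters, only the 2 groups compared, a replicate block, and each library left out. The members and gene lists were chosen with earlier results of these data known. All members are named, with up to 3 genes per list with the largest called change among those of at least 2 CPM, and fixed counterparts. Transcript positions come from GENCODE 29, whose gene extents equal the deposited ones in 2 of 9 members.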

Additional observations from a re-analysis of the deposited data

Results flagged for a closer look

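TGFb replicate 4 stood apart from the other 3 TGFb libraries for 2 members. Its HSPA9 level of 413 CPM lay above them by 0.917 of the group's whole range, and its YME1L1 level of 176 CPM lay below them by 0.868 of it, both above Dixon's critical value for 4 samples. Of 33 sets of 4 values examined these 2 stood apart, and chance gives about 1 in 20. The calls of HSPA9 and YME1L1 in TGFb against control and in STINGX+TGFb against TGFb were the same without each library in turn.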

How the results depend on the processing

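With TGFb against control, 2 members were called in all 12 other settings and without each library. With STINGX+TGFb against TGFb 2 were called, 3 under 9 of 12 settings, 4 with library size alone and 2 to 3 without each library; against control 3 were called, 5 with library size alone and 2 to 3 without each library. HSPD1 in STINGX+TGFb against TGFb reversed from -0.03 to a called rise of 0.11 with library size alone, 0.10 with log2(FPKM + 1) and 0.11 with log2(FPKM + 0.1), which share the scaling by library size. YME1L1 in the same comparison lost its fall with log2(FPKM + 1) at -0.02 and log2(FPKM + 0.1) at -0.02. Of 324 member values in other settings 300 kept their side and direction, 5 were lost, 16 gained and 3 reversed; without a library 317 of 324 kept theirs, 5 were lost and 2 gained. A further 47 values changed sign without passing in either setting. For the other named genes 894 of 972 values in other settings and 886 of 972 without a library were kept. The ratio tests could not pass singly after adjustment and bear on no stability; over libraries left out the HSPD1 to HSPE1 log2 differences ran from 0.26 to 0.55, -0.16 to 0.13 and 0.24 to 0.54. The labels' replicate numbers did not pair libraries: 0 of 12 same-numbered pairs had a correlation of deviations over 0.1, and 5 of 12 libraries correlated best with their own number. With a replicate block 2, 3 and 3 members were called in the 3 comparisons, AFG3L2 among them against TGFb (-0.11, adjusted p = 0.0476). The members with the lowest counts were CLPP and CLPX, at 1805 to 3075 per library, and the widest spread between libraries was that of HSPE1, with a coefficient of variation of 20.96% to 29.4% within groups.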
